A study of Mus musculus with 21 samples.

Results

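The 10 genes described here were a fixed set of activity-induced immediate early genes (*Fos*, *Fosb*, *Fosl1*, *Fosl2*, *Jun*, *Junb*, *Jund*, *Egr1*, *Npas4* and *Nr4a1*), chosen by symbol from the 35266 genes of the count table, and all 10 were among the 16513 genes that passed a filter of more than 1 CPM (counts scaled to library size) in at least 3 libraries. They were measured by RNA-Seq in AGRP and POMC neurons of the hypothalamic arcuate nucleus. AGRP neurons were taken from NPY-hrGFP mice and POMC neurons from Pomc-GFP mice, all male, on a C57BL/6J background and 46 to 56 days old. AGRP neurons were thus identified by an *Npy* reporter and not by *Agrp* itself. Mice of each type were either fed ad libitum (fed, n = 5 AGRP and 5 POMC libraries) or given only water for 24 h (FD, n = 6 AGRP and 5 POMC libraries). Every mouse, fed or FD, had been moved to a fresh individual cage 24 h earlier, and all tissue went through the same pronase digestion before the fluorescent cells were sorted by hand. Each of the 21 libraries came from 1 mouse and from 44 to 214 cells, and held 9822298 to 37663979 gene counts.

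Immediate early genes are transcribed within minutes of a stimulus, from signalling proteins already present in the cell, and in neurons their mRNA is widely used as a mark of recent electrical or hormonal activation. The FOS proteins pair with JUN proteins to form the AP-1 transcription factor, whereas EGR1 is a zinc finger factor, NR4A1 is an orphan nuclear receptor and NPAS4 is a factor induced mainly by calcium entry. AGRP neurons promote feeding and are activated by energy deficit, and POMC neurons act in the opposite direction. The comparison of FD with fed mice asks how each cell type responded to energy deficit.

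The labelled cell types carried their markers. Summed *Agrp* and *Npy* was 12100 to 68900 TPM (scaled to gene length and library size) in AGRP libraries and 5.45 to 226 TPM in POMC libraries, and summed *Pomc* and *Cartpt* was 8810 to 37200 TPM in POMC libraries and 114 to 227 TPM in AGRP libraries. *Agrp* rose in FD AGRP neurons (log2fc 2.08, SE 0.39, q = 0.000531) and *Cartpt* fell in FD POMC neurons (log2fc -1.69, SE 0.36, q = 0.0233). *Npy* in AGRP neurons (log2fc 1.74, SE 0.59, q = 0.0558) and *Pomc* in POMC neurons (log2fc -0.73, SE 0.39, q = 0.473) did not pass the test used here. *Npy* averaged 7010 CPM in FD and 2100 CPM in fed AGRP libraries. *Pomc* averaged 3220 CPM in FD and 5340 CPM in fed POMC libraries. The paper, with another test (limma-voom), reported *Npy* as raised and *Pomc* as modestly lowered. The summed level of 20 markers of astrocytes, oligodendrocytes, microglia, endothelial cells and tanycytes overlapped between fed and FD libraries of each type (56.9 to 128 TPM in AGRP fed, 56.7 to 113 TPM in AGRP FD, 76.1 to 144 TPM in POMC fed and 30.2 to 97.2 TPM in POMC FD). Of the 5 classes taken singly, oligodendrocyte markers did not overlap in AGRP neurons (24.3 to 35.6 TPM in fed, 5.73 to 21.1 TPM in FD), nor did tanycyte and ependymal markers in POMC neurons (52.4 to 104 TPM in fed, 10.9 to 48.6 TPM in FD), and their part in the results below was not tested. Of the microglial and endothelial markers, *Tmem119*, *Cldn5* and *Kdr* were each at 0 in 20 of the 21 libraries, *Cx3cr1* in 16 and *Flt1* in 11, whereas *Aif1* (at most 10.7 TPM) was at 0 in 7, *Csf1r* in 4 and *Pecam1* in 2.

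Promoter sequences were searched for some classical stimulus-response elements in the 250 bases before the start of these genes, where a sequence was available. The RefSeq promoter table used here (GRCm38.p6) matched 8 of the 10 genes, all but *Fosl1* and *Egr1*. Searches covered the 250 bases before the start, on both strands, for the cyclic AMP response element (CRE, TGACGTCA), its core (TGACG, part of every full CRE), the AP-1 site (TGANTCA), the EGR site (GCGNGGGCG), the NR4A site (AAAGGTCA) and the CArG box bound by serum response factor, and on the gene's own strand for TATAAA. The 4 sequences below are shown because *Fos* and *Fosl2* rose in FD AGRP neurons, *Nr4a1* had unequal changes in the 2 cell types, and *Npas4* was lower in AGRP than in POMC neurons. Each is written 5′ to 3′ on the gene's strand, with matches in capitals. The *Fos* promoter (chr12:85473640-85473889, + strand) held CRE cores that began 129 and 66 bases before the start and a TATA box 33 bases before it. That of *Fosl2* (chr5:32136222-32136471, + strand) held an EGR site 79 bases before the start. That of *Nr4a1* (chr15:101266596-101266845, + strand) held 4 CRE cores and 1 EGR site, and that of *Npas4* (chr19:4989972-4990221, - strand) held 2 CRE cores.
Fos: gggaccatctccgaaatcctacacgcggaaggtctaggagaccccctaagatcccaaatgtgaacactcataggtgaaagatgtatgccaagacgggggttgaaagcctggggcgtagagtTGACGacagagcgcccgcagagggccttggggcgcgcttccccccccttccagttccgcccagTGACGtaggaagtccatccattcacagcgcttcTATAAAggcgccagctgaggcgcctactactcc
Fosl2: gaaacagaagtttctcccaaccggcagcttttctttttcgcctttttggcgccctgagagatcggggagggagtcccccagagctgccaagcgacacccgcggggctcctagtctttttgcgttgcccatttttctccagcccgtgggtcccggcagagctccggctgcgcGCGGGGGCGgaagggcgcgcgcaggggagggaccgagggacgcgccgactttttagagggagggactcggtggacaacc
Nr4a1: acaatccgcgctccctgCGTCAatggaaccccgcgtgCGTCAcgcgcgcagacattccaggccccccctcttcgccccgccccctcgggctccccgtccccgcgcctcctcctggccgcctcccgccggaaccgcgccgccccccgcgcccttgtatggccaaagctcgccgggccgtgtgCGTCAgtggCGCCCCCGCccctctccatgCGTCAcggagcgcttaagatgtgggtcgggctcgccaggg
Npas4: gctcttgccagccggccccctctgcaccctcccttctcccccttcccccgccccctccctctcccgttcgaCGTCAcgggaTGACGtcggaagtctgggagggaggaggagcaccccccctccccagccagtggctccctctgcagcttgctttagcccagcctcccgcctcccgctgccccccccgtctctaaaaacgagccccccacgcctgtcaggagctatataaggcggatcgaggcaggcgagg
A CRE core was found in 5 of the 8 promoters (*Fos*, *Fosb*, *Junb*, *Npas4* and *Nr4a1*) and in 17.8% of all 32851 promoters of the same length. An EGR site was found in 3 of the 8 (*Fosb*, *Fosl2* and *Nr4a1*) and in 4.7% of all promoters. The full CRE, the AP-1 site, the CArG box and the NR4A site matched none of the 8 windows, against 1.55%, 6.75%, 1.47% and 1.34% of all promoters. TATAAA was found in 1 of the 8 (*Fos*) and in 7.59% of all promoters. Bases farther from the start were not searched, so a missing match does not mean that a gene lacks the element. The matches are a description of letters in the sequence.

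In AGRP neurons, food deprivation raised 5 of the 10 genes (*Fos*, *Fosb*, *Fosl1*, *Fosl2* and *Egr1*) at q under 0.05 in edgeR's quasi-likelihood test, with folds from 1.7 for *Fosb* to 14.2 for *Fosl2*, and lowered none. Over all genes tested in AGRP neurons, 5.87% were called higher and 4.43% lower in FD. The median log2 fold change (log2fc) was 1.06 over the 10 genes and -0.02 over all genes tested. Levels are given below as CPM after TMM normalization, and log2fc with its standard error (SE). Because these are bulk libraries of pooled cells, fewer cells expressing a gene and less RNA per cell cannot be told apart.

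**Figure D1:**
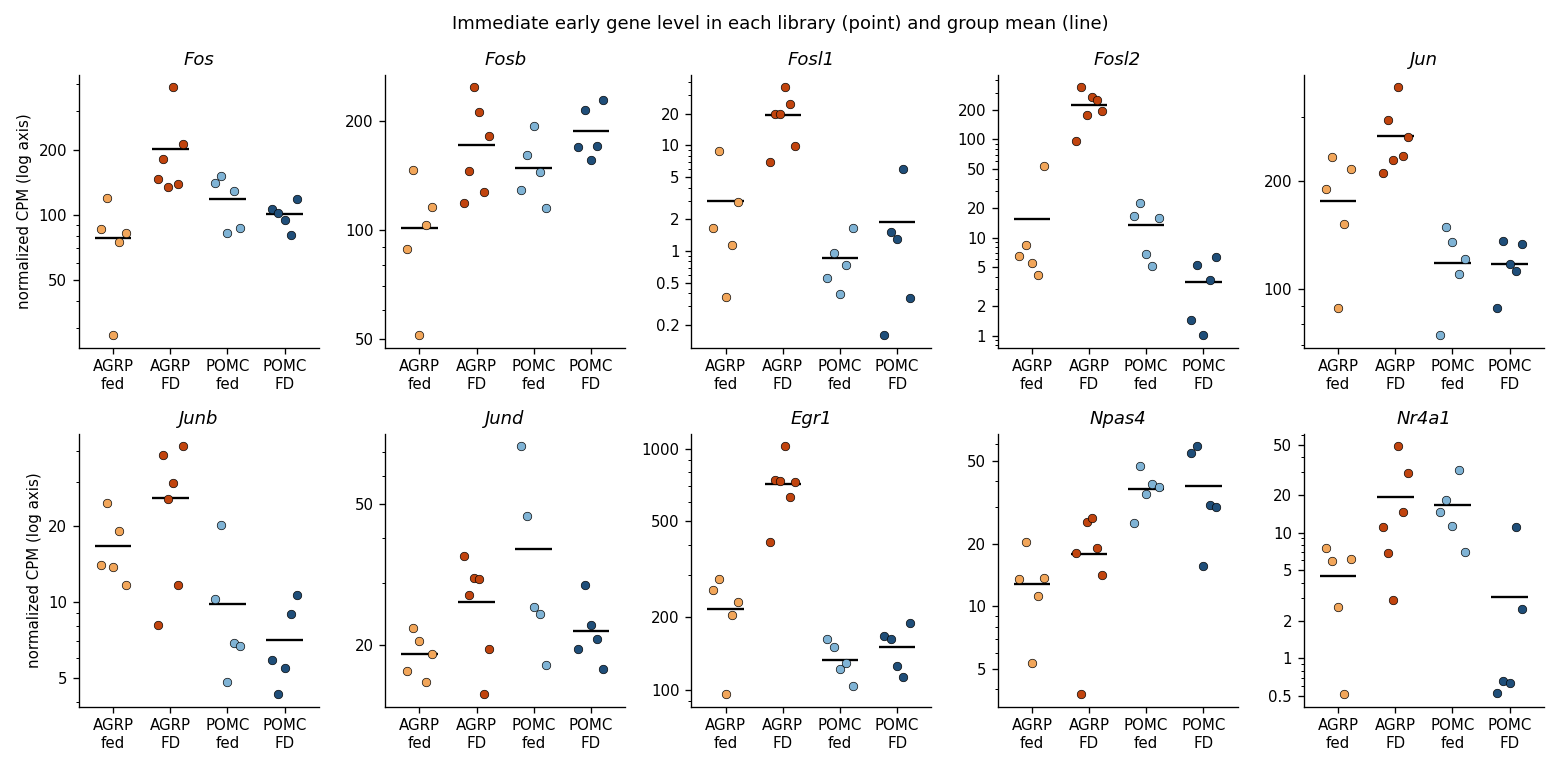
Normalized CPM (log axis) of each immediate early gene in the 4 groups, with 1 point for each library and a line at the group mean. The FD AGRP libraries lie above every fed AGRP library for *Fos*, *Fosl2* and *Egr1*, and the POMC fed and FD libraries overlap for all 10 genes.

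*Fos*, the founding member of the FOS family and the gene most used to map neuronal activation, was 85.6, 119, 27.7, 74.9 and 82.5 CPM in the 5 fed AGRP libraries. In the 6 FD AGRP libraries it ranged from 135 to 388 CPM around a median of 164 CPM. The groups did not overlap, and the lowest fed value came from replicate 3 and the highest FD value from replicate 4. The mean was 78.0 ± 32.9 CPM (SD, n = 5) in fed and 200.2 ± 96.7 CPM (SD, n = 6) in FD libraries, a log2fc of 1.36 (SE 0.28, edgeR q = 0.0016). FD replicate 4 was also the deepest library, with 37663979 gene counts and spike-in counts equal to 22.6% of them, and the part of this in its *Fos* value was not tested. Leaving out each of the 11 AGRP libraries in turn gave a log2fc of 1.06 to 1.56 and q of 0.000984 to 0.00723.

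*Fosl2*, which encodes FRA-2, had the largest change of the 10 genes. It was 6.45, 8.47, 5.47, 4.22 and 53.6 CPM in fed AGRP libraries, so that replicate 5 stood above the other fed libraries. In FD it ranged from 96.6 to 340 CPM, with a median of 226 CPM, again without overlap. The log2fc was 3.83 (SE 0.59, q = 4.78e-05), and without fed replicate 5 it was 5.18 (q = 7.78e-08). *Fosl1*, which encodes FRA-1, was 1.65, 8.8, 0.365, 1.14 and 2.89 CPM in fed and 6.91 to 35.6 CPM (median 19.7 CPM) in FD libraries. The highest fed library exceeded the lowest FD library. Its log2fc was 2.71 (SE 0.80, q = 0.0255). *Fosb*, whose long-lived splice form accumulates with repeated stimulation, was 88.7, 146, 51.2, 103 and 116 CPM in fed and 119 to 248 CPM (median 163 CPM) in FD libraries, which overlapped. Its log2fc was 0.77 (SE 0.22, q = 0.0216).

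The calls for *Fosb* and *Fosl1* were lost without some single libraries. For *Fosb*, q was 0.0585 without fed replicate 1, 0.0795 without fed replicate 3, 0.068 without FD replicate 3 and 0.0525 without FD replicate 4. The *Fosb* call was also lost with a term for how many cells were sorted (q = 0.0545) and with log2(TPM + 1) (log2fc 0.54, q = 0.113). For *Fosl1*, q was 0.0692, 0.0667, 0.0722 and 0.0528 without fed replicates 1, 3, 4 and 5 in turn, and 0.0695 without FD replicate 4. With FD replicate 4 and fed replicate 3 left out together, a choice made after seeing the values, 3 genes were called (*Fos*, *Fosl2* and *Egr1*).

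*Egr1*, a zinc finger factor induced by growth factor and synaptic signals, had the smallest q of the 10 genes. It was 260, 288, 95.9, 204 and 231 CPM in fed AGRP libraries and ranged from 411 to 1025 CPM (median 728 CPM) in FD libraries. Every FD library lay above every fed library. The log2fc was 1.72 (SE 0.22, q = 4.71e-06), and it was 1.53 to 1.84 when each AGRP library was left out. Of the 10 genes, 3 (*Fos*, *Fosl2* and *Egr1*) had FD libraries entirely above the fed ones, against 4.08% of all genes tested, and none had FD libraries entirely below, against 3.57% of all genes.

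The JUN genes, whose products are the partners of FOS proteins, did not pass edgeR's test in AGRP neurons. *Jun* was 190, 233, 88.7, 152 and 216 CPM in fed and 211 to 363 CPM (median 249 CPM) in FD libraries, which overlapped (log2fc 0.59, SE 0.21, q = 0.0669). It passed in 3 of 22 alternatives, with limma-voom (log2fc 0.67, q = 0.0202), without fed replicate 2 (q = 0.0418) and without FD replicate 1 (q = 0.0456). Without fed replicate 3 the *Jun* log2fc was 0.43 (q = 0.213), and with log2(TPM + 1) it was 0.40 (q = 0.252). *Junb*, which can act against JUN at some promoters, spanned 11.7 to 24.9 CPM in fed and 8.12 to 41.8 CPM in FD libraries (log2fc 0.64, SE 0.44, q = 0.433). *Jund*, the most constitutive of the JUN genes in many tissues, spanned 15.7 to 22.4 CPM in fed and 14.6 to 35.7 CPM in FD libraries (log2fc 0.49, SE 0.32, q = 0.415).

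*Nr4a1* and *Npas4* also missed the threshold in AGRP neurons. *Nr4a1* was 7.5, 6.0, 2.55, 0.521 and 6.21 CPM in fed and 2.91 to 48.7 CPM (median 12.8 CPM) in FD libraries. Its mean was higher in FD, but the libraries were widely spread, and the lowest FD library fell among the fed ones (log2fc 2.06, SE 0.77, q = 0.0899). It passed in 2 of 22 alternatives, with a term for how many cells were sorted (log2fc 2.65, q = 0.0334) and with DESeq2 (log2fc 2.02, q = 0.0353). Leaving out each AGRP library in turn gave a *Nr4a1* log2fc of 1.52 to 2.31 and q of 0.0559 to 0.266. *Npas4* was 13.5, 20.5, 5.35, 11.2 and 13.7 CPM in fed and 3.79 to 26.5 CPM in FD libraries. These groups overlapped over most of their range (log2fc 0.47, SE 0.39, q = 0.54).

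AGRP libraries had been given spike-in RNA in 3 ways (1 µl, 10 µl, or a volume set by the number of cells), and the last of these held the mice of 46 to 47 days. FD means were above fed means for 8 of the 10 genes in the 1 µl set (1 FD and 1 fed library), for 10 in the 10 µl set (2 and 2) and for 10 in the set scaled to cells (3 and 2). The *Fos* log2 ratio of means was 0.70, 2.03 and 0.97 in these sets, and that of *Egr1* was 1.28, 2.19 and 1.53. Spike-in counts were 0.274% and 0.358% of gene counts in the 1 µl set and 8.9% to 22.6% in the 10 µl set. This gap was wider than that between the labelled volumes. AGRP fed replicate 5 and FD replicate 3 were labelled with spike-in mix 2 and the other AGRP libraries with mix 1. The part of these differences in the scaling below was not tested. In another fit, library sizes were set from spike-in counts, divided by the added volume and multiplied by the number of sorted cells. None of the 10 genes was then called in AGRP neurons, and 97 genes were called in all, against 1700 in the main analysis. The log2fc was then 0.93 for *Fos* (q = 1.0), 2.82 for *Fosl2* (q = 0.0937) and 1.49 for *Egr1* (q = 0.767).

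In POMC neurons, none of the 10 genes passed the test for food deprivation, where 0.182% of all genes were called higher and 0.194% lower. At an unadjusted p under 0.05, 3 of the 10 were lower (*Fosl2*, *Jund* and *Nr4a1*) and none was higher, against 6.66% and 5.51% of all genes. DESeq2 called 1 gene, *Nr4a1*, and limma-voom called 0. The fed and FD libraries overlapped for every one of the 10 genes, whereas 1.08% of all genes had FD libraries entirely above and 1.27% entirely below the fed ones. The median log2fc was -0.12 over the 10 genes and -0.02 over all genes tested.

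*Fos* was 140, 152, 82.5, 128 and 86.9 CPM in fed POMC libraries and 106, 102, 94.1, 80.7 and 118 CPM in FD POMC libraries. The FD values lay almost wholly within the fed range (log2fc -0.23, SE 0.29, q = 0.824). *Egr1* was 162, 150, 122, 129 and 104 CPM in fed and 166, 162, 125, 113 and 188 CPM in FD libraries. The groups overlapped (log2fc 0.18, SE 0.22, q = 0.83). *Fosb* spanned 115 to 193 CPM in fed and 156 to 229 CPM in FD libraries (log2fc 0.34, SE 0.23, q = 0.591), and *Jun* spanned 74.6 to 149 CPM and 88.6 to 136 CPM (log2fc -0.00, SE 0.22, q = 0.999). *Junb* had a log2fc of -0.48 (SE 0.46, q = 0.748). *Fosl1* was near the floor of detection in POMC neurons, at 0.393 to 1.64 CPM in fed and 0.16 to 5.99 CPM in FD libraries, where 3 counts correspond to 0.114 to 0.305 CPM (log2fc 1.10, SE 0.79, q = 0.628).

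*Fosl2* was 16.7, 22.3, 6.87, 5.15 and 15.9 CPM in fed and 1.44, 5.3, 1.01, 3.73 and 6.38 CPM in FD POMC libraries. All FD libraries but 2 were below every fed library (log2fc -1.92, SE 0.58, q = 0.128). *Nr4a1* was 14.5, 18.1, 11.3, 31.2 and 6.98 CPM in fed and 0.532, 0.668, 0.634, 11 and 2.46 CPM in FD libraries. Replicate 4 was the only FD library that reached the fed range (log2fc -2.45, SE 0.80, q = 0.17). Without that library the log2fc was -3.95 (q = 0.0235). The POMC libraries given 1 µl of spike-in RNA were the only set with both conditions, and this set also leaves out FD replicate 4. In it *Nr4a1* averaged 0.611 CPM in 3 FD and 16.5 CPM in 3 fed libraries, without overlap. With only these POMC libraries in the fit, a choice not planned in advance, the log2fc was -4.74 (q = 0.049). In the same set *Jund* averaged 24.0 CPM in FD and 22.6 CPM in fed libraries, whereas over all POMC libraries its log2fc was -0.77 (SE 0.34, q = 0.345), and both of its highest fed values (72.8 and 46.3 CPM) came from outside that set. *Npas4* was 25.1, 47.2, 34.5, 38.7 and 37.4 CPM in fed and 54.7, 58.9, 15.6, 30.5 and 30.1 CPM in FD libraries. Its FD libraries lay on both sides of the fed range (log2fc 0.06, SE 0.41, q = 0.984).

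**Figure D2:**
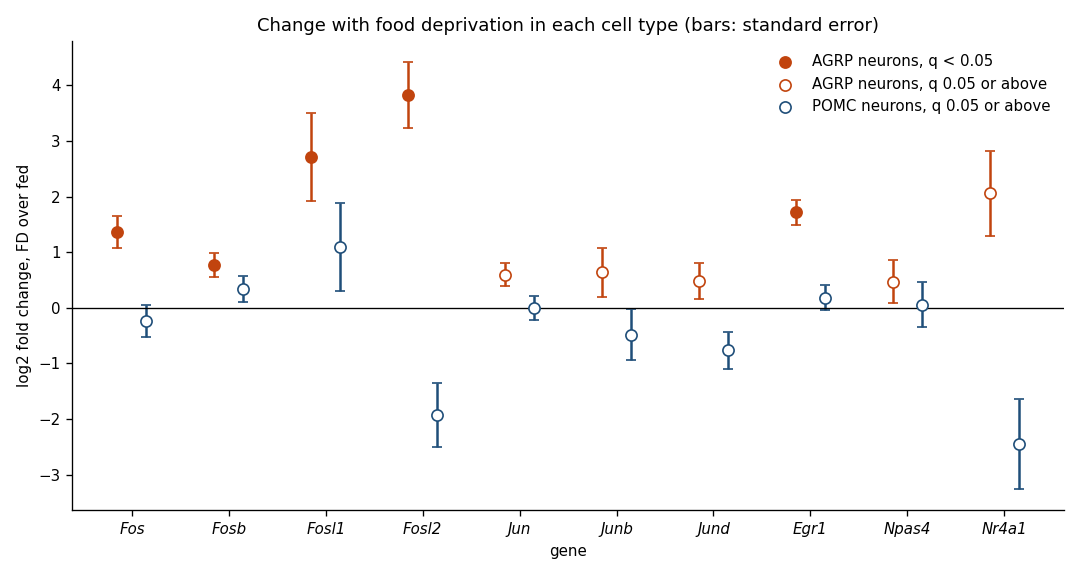
Log2 fold change of FD over fed for each gene in AGRP and POMC neurons, with standard errors as bars and filled points for q under 0.05. The 10 AGRP values lie between 0.47 and 3.83, and the POMC values lie between -2.45 and 1.10 with none filled.

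The difference between the 2 responses was tested as the interaction of cell type and deprivation. The change in AGRP neurons exceeded that in POMC neurons for 4 of the 10 genes, when 4.08% of all genes had a called positive and 2.63% a called negative difference. The difference in log2fc was 1.60 for *Fos* (SE 0.40, q = 0.0135), 5.75 for *Fosl2* (SE 0.82, q = 3.83e-05), 1.54 for *Egr1* (SE 0.31, q = 0.00233) and 4.51 for *Nr4a1* (SE 1.11, q = 0.012). All 4 calls held when each of the 21 libraries was left out in turn. The *Fos* call was lost with log2(TPM + 1) (q = 0.0533) and with the POMC 1 µl set alone (1.33, q = 0.123), the *Nr4a1* call without AGRP FD replicate 4 and fed replicate 3 together (3.82, q = 0.0572), and those of *Fos*, *Egr1* and *Nr4a1* with spike-in scaling (q = 0.455, 0.415 and 0.0557). The change of *Nr4a1* passed the threshold in neither cell type with edgeR, whereas DESeq2 called it in AGRP (log2fc 2.02, q = 0.0353) and in POMC neurons (log2fc -2.42, q = 0.0478). The differences for *Fosb* (0.43, SE 0.31, q = 0.49) and *Fosl1* (1.61, SE 1.09, q = 0.443) were not called, so that their changes in AGRP neurons were not shown to differ from those in POMC neurons. The remaining differences were 0.60 for *Jun* (q = 0.263), 1.12 for *Junb* (q = 0.337), 1.25 for *Jund* (q = 0.112) and 0.42 for *Npas4* (q = 0.748).

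Between the cell types in fed mice, 1 of the 10 genes was called. *Npas4* was lower in AGRP (12.8 ± 5.43 CPM, SD, n = 5) than in POMC neurons (36.6 ± 7.97 CPM, SD, n = 5), and the groups did not overlap (log2fc -1.51, SE 0.42, q = 0.0205). Over all genes, 3.33% were called higher and 4.24% lower in fed AGRP neurons. The *Npas4* call was lost without AGRP fed replicate 3 (q = 0.0674), AGRP fed replicate 4 (q = 0.0536) or POMC fed replicate 2 (q = 0.0547), without AGRP fed replicate 3 and FD replicate 4 together (q = 0.0631), with log2(TPM + 1) (q = 0.0554), with the POMC 1 µl set alone (q = 0.0697) and with spike-in scaling (q = 0.934). *Egr1* (log2fc 0.70, SE 0.23, q = 0.055) and *Jund* (log2fc -0.98, SE 0.34, q = 0.0769) missed the threshold. Without AGRP fed replicate 3, *Egr1* (q = 0.00419) and *Jun* (q = 0.0192) passed, and without POMC fed replicate 5 *Jund* passed (q = 0.0309). *Fos* was 0.66 times the POMC level in fed AGRP neurons (log2fc -0.60, SE 0.29, q = 0.254).

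In FD mice, 7 of the 10 genes were higher in AGRP than in POMC neurons, against 9.28% of all genes, and 1 was lower, against 9.27%. *Fosl2* had the largest difference, 223 ± 84.3 CPM (SD, n = 6) in AGRP and 3.57 ± 2.34 CPM (SD, n = 5) in POMC neurons (log2fc 5.98, SE 0.66, q = 5.79e-08). *Egr1* was 710 ± 198 CPM (SD, n = 6) and 151 ± 31.2 CPM (SD, n = 5) (log2fc 2.24, SE 0.23, q = 1.28e-08). For both genes all FD AGRP libraries were above all FD POMC libraries, as they were for *Fos*, *Fosl1* and *Jun*. The log2fc was 1.00 for *Fos* (q = 0.0106), 3.40 for *Fosl1* (q = 0.00337), 1.17 for *Jun* (q = 0.000122), 1.89 for *Junb* (q = 0.00317) and 2.66 for *Nr4a1* (q = 0.0167). Without AGRP FD replicate 4, the calls for *Fos* (log2fc 0.70, q = 0.0556) and *Nr4a1* (log2fc 2.12, q = 0.0639) were lost. *Npas4* was lower in FD AGRP neurons (log2fc -1.09, SE 0.39, q = 0.049), with overlapping libraries, and this call was lost when AGRP FD replicate 1 (q = 0.0665), 2 (q = 0.0842), 5 (q = 0.0661) or 6 (q = 0.0848), or POMC FD replicate 1 (q = 0.132), 2 (q = 0.149), 4 (q = 0.0541) or 5 (q = 0.0521), was left out. *Fosb* (log2fc -0.13, SE 0.22, q = 0.752) and *Jund* (log2fc 0.27, SE 0.32, q = 0.63) were not called. The 4 comparisons share groups of libraries, so their calls are not independent of each other.

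The order of the 4 group means differed between genes. *Fos* was highest in FD AGRP neurons, followed by fed POMC, FD POMC and fed AGRP neurons, and each neighbouring pair in that order overlapped. *Fosl2* and *Egr1* were highest in FD AGRP neurons and separated there from the next group, while their lower 3 groups overlapped as neighbours. *Npas4* and *Fosb* had their highest mean in FD POMC neurons. For every gene, the lower 3 groups in the order overlapped with their neighbours.

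Levels of different genes were compared per length, as TPM. In fed AGRP neurons the 4 FOS genes summed to 238 ± 87.1 TPM (SD, n = 5), of which *Fos* was 53.4% ± 5.79, *Fosb* 40.7% ± 5.22, *Fosl2* 3.77% ± 4.31 and *Fosl1* 2.08% ± 1.73. In FD AGRP neurons the sum was 552 ± 130 TPM (SD, n = 6), and *Fosl2* made up 20.2% ± 6.78 of it, *Fosb* 25.0% ± 7.26 and *Fos* 48.9% ± 9.14. *Fos* therefore remained the largest part by its mean, while the share of *Fosl2* was higher and that of *Fosb* lower than in fed AGRP neurons. In POMC neurons the FOS sum was 302 ± 34.9 TPM in fed and 333 ± 44.8 TPM in FD libraries (SD, n = 5 each). *Fosl2* was 2.33% ± 1.2 of it in fed and 0.588% ± 0.338 in FD, and *Fosb* was 40.8% ± 8.93 and 50.3% ± 2.71.

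The JUN sum was 248 ± 61.2 TPM in fed and 312 ± 44.3 TPM in FD AGRP neurons, and 170 ± 25.5 TPM in fed and 162 ± 24.3 TPM in FD POMC neurons (SD). *Jun* was 76.7% ± 7.17 of the sum in fed and 78.4% ± 4.96 in FD AGRP neurons. The ratio of summed FOS to summed JUN TPM was 0.932 ± 0.165 in fed AGRP neurons (0.658 to 1.08) and 1.76 ± 0.251 in FD AGRP neurons (1.47 to 2.18). In POMC neurons it was 1.79 ± 0.24 in fed and 2.07 ± 0.301 in FD libraries. These sums and ratios are given as a description, without a test.

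**Figure D3:**
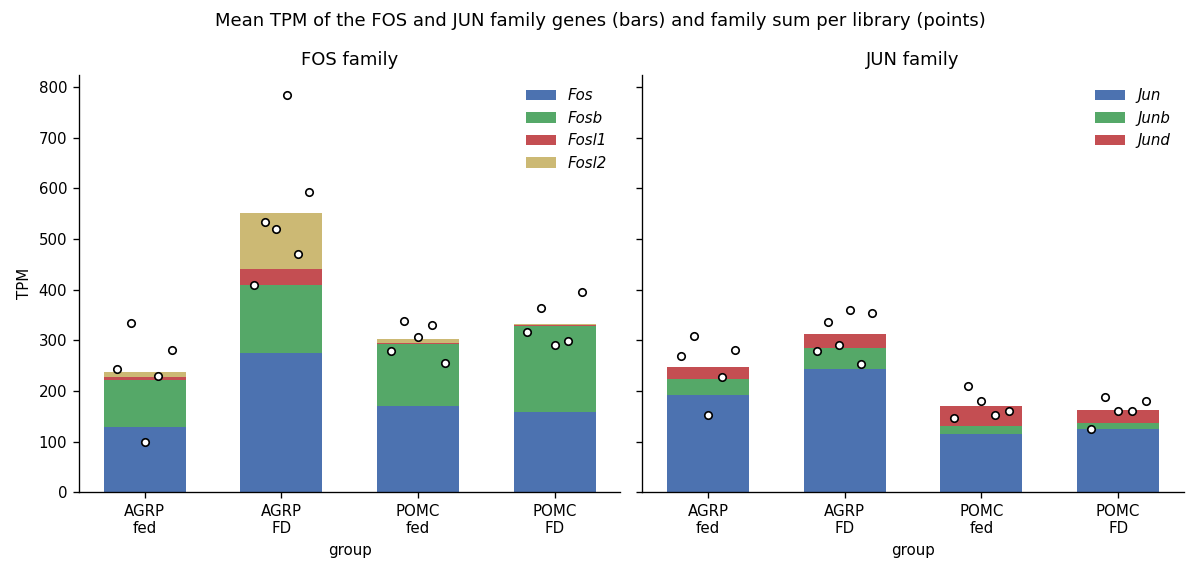
Mean TPM of the FOS genes (left) and JUN genes (right) as stacked bars for each group, with 1 point for the family sum of each library. The FOS bar reaches 552 TPM in FD AGRP neurons with a visible *Fosl2* part, and 238 to 333 TPM in the other groups.

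Across libraries of the same group, *Fos* varied together with *Egr1*. The deviations of log2 CPM from the group mean had a Pearson r of 0.869 and a Spearman rho of 0.852 over 21 libraries (two-sided permutation p within groups, 2e-05 and 5e-05, adjusted over the 9 relations computed 0.00018 and 0.00045), and 18 of 21 libraries deviated to the same side for both genes. Without the 2 libraries with the most extreme *Fos* deviation (AGRP fed replicate 3 and AGRP FD replicate 4), r was 0.752. For the other 8 genes the adjusted p of r was 0.0634 or higher. With *Jun*, r was 0.658 and rho 0.505 (permutation p = 0.0141 and 0.0383), and r fell to 0.348 without those 2 libraries, so that this relation rested on them. The relation with *Fosb* had an r of 0.604 and a rho of 0.434 (permutation p = 0.0326 and 0.079), and r fell to 0.342 without them. With *Junb*, r was 0.465 and rho 0.562 (permutation p = 0.0407 and 0.0146), and r was 0.553 without the 2 libraries. That with *Nr4a1* had an r of 0.432 and a rho of 0.531 (permutation p = 0.0702 and 0.0172), and r was 0.337 without the 2 libraries. With *Npas4*, r was 0.385 and rho 0.251 (permutation p = 0.142 and 0.26).

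**Figure D4:**
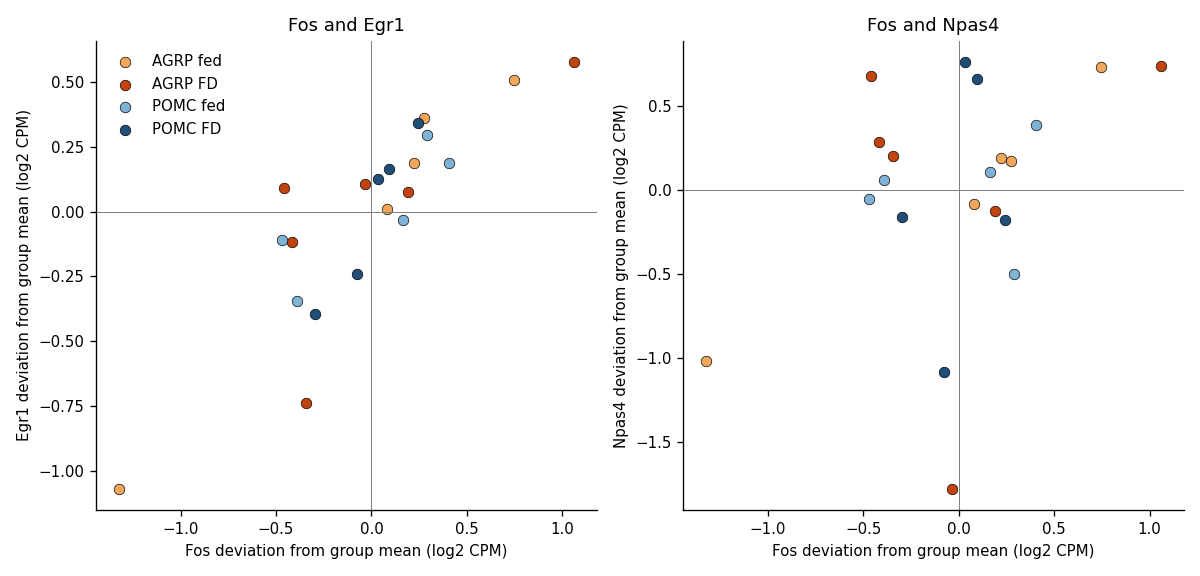
Deviation of *Egr1* (left) and *Npas4* (right) against the deviation of *Fos* from the group mean, in log2 CPM, for the 21 libraries coloured by group. The points follow a rising line for *Egr1* (r = 0.869) and are scattered for *Npas4* (r = 0.385).

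Of 5 tested relatives of the 10 genes, only *Nr4a3*, an orphan receptor of the NR4A family, was called (28.2 CPM in FD and 7.59 CPM in fed AGRP neurons, log2fc 1.89, SE 0.57, q = 0.031), and *Arc*, a synaptic immediate early gene, was not (log2fc 0.50, SE 0.78, q = 0.781). Of 28 other rapid-response genes, 13 rose and 1 fell in FD AGRP neurons, with a median log2fc of 1.28, against -0.02 over all genes. The largest rises among them were those of *Zfp36* (log2fc 3.47, SE 0.94, q = 0.0154), whose product destabilizes mRNAs, *Atf3* (3.34, SE 1.03, q = 0.0353), a stress-induced partner of JUN, *Plk2* (3.00, SE 0.42, q = 1.37e-05), an activity-induced kinase, and *Nfil3* (2.63, SE 0.54, q = 0.00133), a leucine zipper repressor. *Klf10* fell from 5.23 to 0.292 CPM (log2fc -4.14, SE 1.14, q = 0.0166). In POMC neurons none of the 5 and none of the 28 was called. These lists, and those below, were chosen with earlier results of these data known, so their counts and medians are a description. Over all genes tested, 5.87% were called higher and 4.43% lower in FD AGRP neurons, and 0.182% and 0.194% in FD POMC neurons.

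Of 8 tested AP-1 partners outside the FOS and JUN families, *Atf4* (log2fc 1.13, SE 0.24, q = 0.00194) and *Atf2* (0.51, SE 0.14, q = 0.0183) rose in FD AGRP neurons and none fell. Of 17 regulators that act on immediate early gene promoters, 2 rose and 2 fell. *Crem*, which encodes activators and repressors at CRE sites, rose (1.94, SE 0.38, q = 0.000896), as did *Elk4*, a cofactor of serum response factor (1.30, SE 0.24, q = 0.000512). *Elk1*, another such cofactor, fell (-1.49, SE 0.31, q = 0.0016), as did *Mef2c*, a calcium-responsive factor (-2.62, SE 0.57, q = 0.0026). *Creb1*, the main CRE-binding activator, had a log2fc of 0.32 (SE 0.30, q = 0.596). Of 20 upstream kinases, 5 rose and 2 fell in AGRP neurons. *Rps6ka3* (1.31, SE 0.39, q = 0.0286) and *Rps6ka2* (0.92, SE 0.23, q = 0.00963) rose, as did *Camk2d* (0.53, SE 0.17, q = 0.0376) and *Prkacb* (0.49, SE 0.13, q = 0.0158). *Rps6ka5* (-0.89, SE 0.26, q = 0.0231) and *Camk2a* (-0.89, SE 0.17, q = 0.000637) fell. In POMC neurons none of the partners or regulators was called, and among the kinases *Rps6ka5* rose (1.31, SE 0.28, q = 0.0207) and *Camk4* fell (-0.91, SE 0.19, q = 0.0233).

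Of 14 late-response genes of neuronal activity, 5 rose and 2 fell in FD AGRP neurons. *Vgf*, a secreted neuropeptide precursor, rose from 56.1 to 1520 CPM (log2fc 4.76, SE 0.34, q = 1.02e-10). *Pdyn*, the dynorphin precursor (3.08, SE 0.33, q = 1.71e-07), *Scg2*, secretogranin II (2.26, SE 0.18, q = 6.5e-10), and *Nptx2*, a synaptic pentraxin (1.94, SE 0.50, q = 0.00997), rose too. *Bmp3* (-3.21, SE 0.52, q = 9.13e-05) and *Rasgrp1* (-1.25, SE 0.22, q = 0.000274) fell. In POMC neurons 2 of the 14 fell and none rose. These were *Vgf*, from 563 to 131 CPM (-2.10, SE 0.30, q = 0.00023), and *Rasgrp1* (-1.25, SE 0.23, q = 0.00659).

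Heat shock genes, which respond to cell dissociation, were measured beside these lists. In AGRP neurons 3 of 11 were higher in FD (*Dnajb1*, log2fc 0.97, SE 0.29, q = 0.0262, *Hspa8*, 0.92, SE 0.16, q = 0.000243, and *Dnaja1*, 0.64, SE 0.17, q = 0.0123) and none lower, and in POMC neurons none was called. Their summed level was 7860 to 11700 TPM in fed and 8950 to 12700 TPM in FD AGRP libraries, and 7330 to 9150 TPM in fed and 7250 to 8510 TPM in FD POMC libraries. The interaction of cell type and deprivation was called for 3 of the 11 heat shock genes, all with a positive difference, against 4.08% of all genes. The median difference was 1.05 over the 11, against 1.4 over the 10 immediate early genes. The part of the heat shock genes in the changes of the immediate early genes was not tested. Of the markers of other cell types, *Aldh1l1* of astrocytes was called in AGRP neurons (0.0312 CPM in fed and 2.26 CPM in FD, q = 0.0284). Its fed mean was below the floor of 3 counts, 0.151 to 0.202 CPM in those libraries. The astrocyte markers *Gfap* (log2fc -0.50), *Aqp4* (-0.38) and *Slc1a3* (0.30) were not called. Summed astrocyte markers overlapped (1.67 to 7.51 TPM in fed and 0.468 to 14.1 TPM in FD AGRP libraries).

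**Figure D5:**
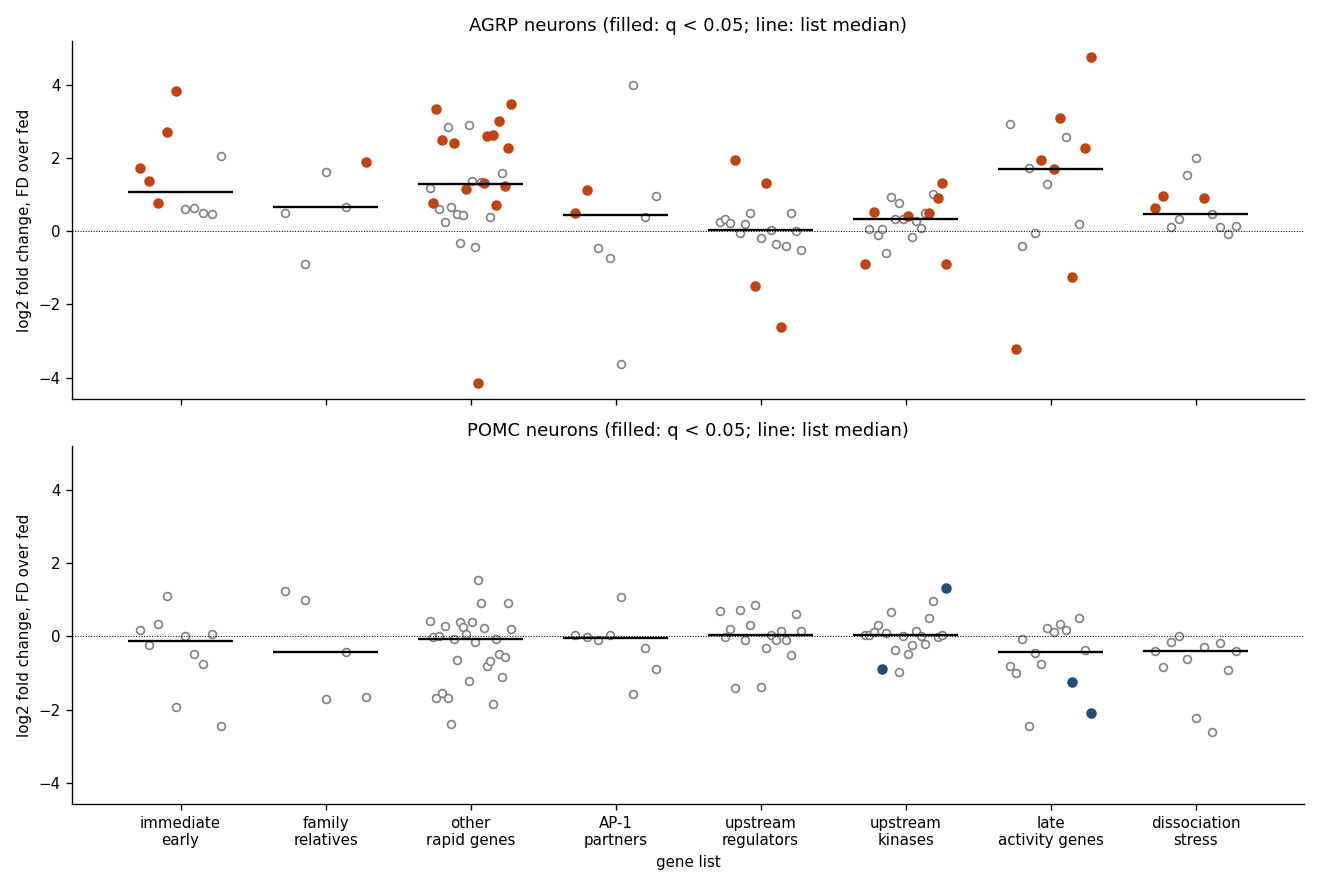
Log2 fold change of FD over fed for the genes of each list in AGRP (top) and POMC (bottom) neurons, with 1 point for each gene, filled at q under 0.05, and a line at the list median. The medians in AGRP neurons are 1.06 for the immediate early genes, 1.28 for the other rapid genes and 1.7 for the late genes, and in POMC neurons they are -0.12, -0.07 and -0.43. The lists were chosen with earlier results of these data known.

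Each gene's 4 group means of log2 CPM were centred on their own mean, so that likeness here is in pattern and not in level. Among 8197 genes above 20 CPM in at least 1 group, those nearest to *Fos* were *Trim9*, *Dnajc21*, *Fam160b2*, *Tet2* and *Stx4a*. Their root mean square distances from it were 0.0709 to 0.0906 on the log2 scale. *Trim9* averaged 138 and 349 CPM in fed and FD AGRP neurons and 192 and 178 CPM in fed and FD POMC neurons. Nearest to *Fosl2* were *Arap2*, *Cyp4v3*, *Atf3*, *Fam107b* and *Slco1a1*, at distances of 0.458 to 0.625, so that its pattern had less close matches than that of *Fos*. *Arap2* averaged 7.44 and 63.5 CPM in fed and FD AGRP neurons and 5.76 and 0.86 CPM in fed and FD POMC neurons. The likeness is over 4 group means and is a description.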

How the data were processed

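Sorted AGRP and POMC neurons of 21 mice were measured by RNA-Seq. The authors trimmed reads with cutadapt 1.7.1, filtered with Bowtie2 2.1.0, mapped to mm10 with STAR 2.4.0i, and made the deposited counts with HTSeq 0.6.1p1, unstranded and not normalized, so overlapping and antisense genes cannot be told apart. TPM, also deposited by the authors, were those counts scaled by exon length and library total. RNA had been amplified and carried no molecular identifiers, so a floor of 3 counts covers counting error only. The 92 spike-in and 5 summary entries stayed out of library sizes and tests.

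Groups were taken from the labels. The immediate early genes and all gene lists were chosen with earlier results of these data known. Genes over 1 CPM in at least 3 libraries (16513) entered 1 edgeR 4.0.16 quasi-likelihood fit over the 4 groups (R 4.3.3, TMM, two-sided, Benjamini-Hochberg q under 0.05 over all genes). Besides the 10 genes, the text names up to 4 called genes with the largest log2fc per direction and list in each deprivation contrast. It also names the 5 nearest to *Fos* and *Fosl2* in group means of log2(CPM + 1), centred on each gene's own mean. *Arc* and *Creb1* were named after their values were seen. Alternatives used limma 3.58.1, DESeq2 1.42.0, other scalings, filters and blocks, log2(TPM + 1), and each library left out. Co-variation used log2(CPM + 1) and 100000 permutations within groups (scipy 1.17.1). Scripts were tested on simulated data. Starts in the count table lie 1 base before those of RefSeq on the + strand, and coordinates are 1-based.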

Additional observations from a re-analysis of the deposited data

Results flagged for a closer look

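The following values stood apart from the rest of their group by Dixon's test at the 95% level, and 40 groups of values were examined. By chance the test marks about 1 in 20 groups of normally distributed values. It was run on CPM without a log transform, so that rate need not hold here. *Fos* was 388 CPM in AGRP FD replicate 4, and the next highest library of that group was at 212 CPM. *Fosl2* was 53.6 CPM in AGRP fed replicate 5, against 8.47 CPM or less in the other fed AGRP libraries. *Fosl1* was 5.99 CPM in POMC FD replicate 4, where the next highest was 1.53 CPM. *Nr4a1* was 11 CPM in the same POMC library, where the next highest was 2.46 CPM.

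The change with deprivation differed between AGRP and POMC neurons in edgeR's interaction test for 4 genes, by a log2fc of 1.60 for *Fos*, 5.75 for *Fosl2*, 1.54 for *Egr1* and 4.51 for *Nr4a1*.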

How the results depend on the processing

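Of 1200 alternative values of the 10 genes, 1096 kept their direction and side of the threshold, 52 kept the direction and lost a call, 22 gained one and 30 changed sign. The count of genes called higher or lower in AGRP neurons was 5, with 3 to 6 when each library was left out, 0 under spike-in scaling and 3 without AGRP FD replicate 4 and fed replicate 3. In POMC neurons it was 0, with 0 to 1 when each library was left out and 1 with DESeq2, with the spike-in set as a block, or with the 1 µl set alone. Between fed cell types it was 1, with 0 to 2 over left-out libraries, 3 with DESeq2, 2 with RLE factors, no count filter, the spike-in set as a block, log2(TPM + 1) or those 2 AGRP libraries left out together (*Jun* and *Egr1* in place of *Npas4* in the last 2), and 0 with spike-in scaling or the POMC 1 µl set alone. Between FD cell types it was 8, with 6 to 8 over left-out libraries and 5 under spike-in scaling. The interaction gave 4 throughout the left-out libraries, 3 with log2(TPM + 1), those 2 AGRP libraries left out or the POMC 1 µl set alone, and 1 under spike-in scaling. Under spike-in scaling the median log2fc of all genes was -1.11 in POMC neurons (-0.02 in the main analysis), 1.10 between FD cell types (-0.0038) and 1.04 for the interaction (0.0065), and log2(TPM + 1) moved it to -0.276 in AGRP neurons and -0.349 for the interaction, so changes under these scalings are relative to those medians. Co-variation with *Fos* was called for 1 gene, and for 2 without the 2 extreme libraries. The causes were not tested.

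Same-numbered libraries did not deviate together (r of deviations -0.157 to 0.056), so the numbers do not pair the mice. With the replicate number as a block, 4 genes were called in AGRP (*Fosb* lost, q = 0.0502) and 1 in POMC neurons (*Fosl2*, log2fc -2.12, q = 0.0359). The block turned *Jun* (0.0012) and *Npas4* (-0.011) in POMC neurons and *Fosl2* between fed cell types (-0.28).

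The sign changes were almost all of genes not called. In POMC neurons they were *Npas4* with limma-voom (-0.10), *Jun* with DESeq2 (0.012), RLE factors (0.012) or log2(TPM + 1) (0.14), *Fosb* (-0.77), *Fosl1* (-0.31), *Egr1* (-1.01) and *Npas4* (-1.03) under spike-in scaling, and *Fos* (0.019) and *Jund* (0.083) in the 1 µl set. Leaving out each library gave -0.015 to 1.46 for *Fosl1*, -0.13 to 0.093 for *Jun* and -0.15 to 0.25 for *Npas4* in POMC neurons, and -1.12 to 0.49 for *Fosl2* between fed cell types. Between fed cell types, *Fosl2* turned with limma-voom (-0.37), sorted cells as covariate (-0.49), the spike-in set (-0.049) and log2(TPM + 1) (-0.084). Between FD cell types, *Jund* turned with the spike-in set (-0.16), *Fosb* under spike-in scaling (1.16) and the called *Npas4* under spike-in scaling (0.13).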
